A study of Sus scrofa with 36 samples.

Results

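Haloperidol alone was compared with bromocriptine alone in the mammary gland of ovariectomized pigs, in 8 of the 36 animals of a study of hormone combinations. The members were chosen by their treatment label, and comprised 4 animals given haloperidol (group H) and 4 given bromocriptine (group B), with no estrogen or progesterone in either group. All 8 were female Yucatan miniature pigs aged 5 months, around puberty, whose ovaries had been removed. Group H received bromocriptine for 8 days and then haloperidol for 5 days. Group B received bromocriptine for all 13 days. The other 24 ovariectomized animals received the same drugs with estrogen (HE against BE), progesterone (HP against BP) or both (HEP against BEP), and 4 sham-operated animals that kept their ovaries received saline for 13 days. BrdU, a label of newly made DNA, was injected into all animals 24 hours before the end. Group H had also started on bromocriptine and no ovariectomized group went without a drug, so the comparison sets 1 drug against the other and neither against no drug. Hormone levels in blood were not analysed here.

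Prolactin is a pituitary hormone whose release is held back by dopamine acting on D2 receptors. Bromocriptine activates these receptors and lowers prolactin, and haloperidol blocks them and raises it. In mammary epithelium, prolactin binds its receptor and acts through the kinase JAK2 and the transcription factors STAT5A and STAT5B, which turn on the genes of the caseins and other milk proteins. The gland around this epithelium is largely fat and connective tissue, with vessels and resident macrophages. The comparison asks which genes differ when dopamine blockade replaces dopamine activation and no steroid is added.

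RNA of each gland was measured on 1 array of 20792 probe sets, and values are given on the log2 scale on which the deposited RMA values were read. Array medians lay between 7.83 and 7.91, and precision is limited by having 4 animals a group. The gland's own markers were present: in the 8 animals, KRT8, a keratin of luminal epithelium, ranged from 11.3 to 12.8 and the epithelial adhesion gene EPCAM from 10.4 to 12.1. In the 2 groups, 3 animals stood apart. Animal B of group B had milk transcripts near the level of group H, with a mean over 24 milk genes of 10.3, where the others of its group lay between 6.998 and 8.33. Skeletal muscle genes were high in animal C of group H, with a list mean of 10.9, and in animal A of group B, with 12.8. The other animals had list means of 6.50 to 7.12 in group H and of 5.19 to 6.14 in group B. Differences that rest on these animals are therefore also given without them. Since animal B of group B is left out for its milk transcripts, the milk differences without it are larger by that choice and are given as descriptions, with no test. Values under the lower quartile of an array, which lay between 5.90 and 6.09, are called dim, and differences that reach into them have an uncertain size. Array A of group BP, outside the 2 groups compared, also stood apart from its group. The first principal component of the 8 arrays held 35.0% of their variance and set the muscle-rich animal of group B apart.

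Several milk genes differed widely between haloperidol and bromocriptine, and the phosphate transporter gene SLC34A2 was the member that rose with all animals counted. SLC34A2 encodes a sodium-dependent phosphate carrier of secretory epithelia. Its values were 10.65, 9.86, 9.86 and 9.58 in H animals A to D, against 3.93, 7.40, 4.55 and 5.56 in B animals A to D. Every H animal lay above every B animal, and animal B of group B was the highest of its group. The difference was 4.63 ± 0.83 on the log2 scale (SE from limma, n = 4 each; adjusted p = 0.0274), and its size is uncertain because B animals A, C and D had dim values. Without animal B of group B it was 5.31 ± 0.85.

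The caseins, the main proteins of milk, were high in every H animal and divided group B. CSN2, beta-casein, stood at 12.14, 11.50, 12.04 and 11.64 in H animals A to D, against 4.16, 11.58, 2.25 and 6.004 in B animals A to D. The beta-casein level of animal B of group B lay inside the range of group H, and the other 3 B animals lay more than 5 units below it. With all animals the difference was 5.83 ± 1.36 and did not pass (adjusted p = 0.104). Without animal B of group B it was 7.69 ± 1.20. CSN1S2 and CSN1S1, which encode alpha-S2- and alpha-S1-casein, differed by 6.03 ± 1.69 and 4.96 ± 1.30 with all animals (adjusted p = 0.185 and 0.138) and by 8.08 ± 1.57 and 6.64 ± 1.17 without that animal. Kappa-casein, CSN3, differed by 4.94 ± 1.46 with all animals (adjusted p = 0.202) and by 6.66 ± 1.37 without that animal.

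Whey protein genes divided group B in the same way, and LALBA and WAP also spread widely within group H. PAEP, the lipocalin family member of the milk whey, was at 13.21, 12.91, 13.24 and 12.76 in H animals A to D, against 7.45, 12.81, 9.74 and 8.94 in B animals A to D. Its difference of 3.30 ± 0.79 did not pass with all animals (adjusted p = 0.11), and it was 4.32 ± 0.71 without animal B of group B. LALBA, alpha-lactalbumin, which makes the lactose-forming enzyme complex, was at 12.39, 8.33, 10.51 and 5.47 in H animals A to D, against 2.30, 10.78, 2.76 and 3.26 in B animals A to D. WAP, whey acidic protein, was at 12.49, 9.77, 12.27 and 6.76 in H animals A to D, against 3.24, 10.18, 3.59 and 4.52 in B animals A to D. In both genes H animals A and C were high, H animal D was the lowest of its group, and animal B of group B lay above H animals B and D. Neither gene passed with all animals (adjusted p = 0.425 for LALBA and 0.228 for WAP).

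**Figure D1:**
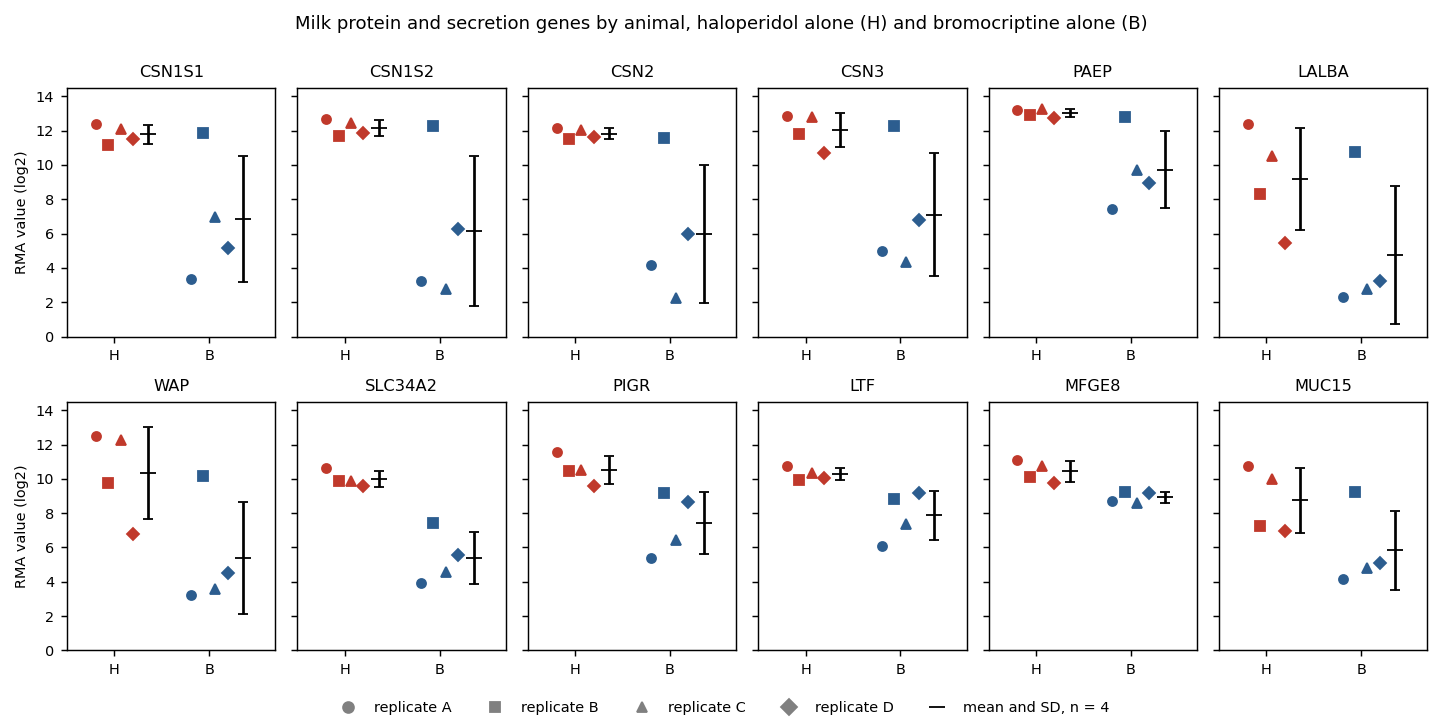
RMA values (log2) of 12 milk protein and secretion genes, 1 point per animal, in haloperidol-treated (H, left) and bromocriptine-treated (B, right) animals; the mark shape gives the replicate letter and the bars the mean and SD over 4 animals. The caseins lie above 10 in every H animal and in B animal B only, SLC34A2, PIGR, LTF and MFGE8 do not overlap between the groups, and LALBA and WAP spread widely within group H.

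Of the 32 genes on the list of milk proteins and secretion, 24 were measured. With all animals 1 of the 24 was called higher, where 0.0786% of the 6360 genes measured were called higher. At an unadjusted p under 0.05, 14 of the 24 were higher and 0 lower, against 6.53% of all genes higher and 4.80% lower. The median difference was 1.48, against 0.01 over all genes, and was 1.67 without animal B of group B. For 5 members all 4 H animals lay above all 4 B animals, which was so for 4.12% of all genes. These were SLC34A2, LTF, PIGR, MFGE8 and SPP1. Lower differences, none of them called, came from members that fat cells also express or that serve secretion in general, such as LPL, a lipase that frees fatty acids from circulating lipoproteins, at -0.20 ± 0.23. Nothing in bulk RNA tells fewer cells of a type from less RNA per cell.

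The milk list members LTF, PIGR and MFGE8 did not overlap between the groups and did not pass. LTF, lactoferrin, which binds iron, was at 10.76, 9.93, 10.34 and 10.07 in H animals A to D, against 6.07, 8.85, 7.36 and 9.18 in B animals A to D. PIGR, the receptor that carries IgA across the epithelium into milk, was at 11.54, 10.44, 10.51 and 9.60 in H animals A to D, against 5.36, 9.20, 6.44 and 8.64 in B animals A to D. The differences were 2.41 ± 0.58 and 3.11 ± 0.77, and neither passed (adjusted p = 0.11 and 0.122). A second PIGR probe set gave 2.61 ± 0.77. MFGE8, a coat protein of the milk fat globule that also tags dying cells for removal, differed by 1.51 ± 0.37 (adjusted p = 0.122). SAA2, an acute-phase serum amyloid gene, had a difference of 2.40 ± 0.65 with all animals (adjusted p = 0.165) and of 3.19 ± 0.60 without animal B of group B, which at 11.74 lay among the H animals. A second SAA2 probe set differed by 0.23 with all animals and by 0.30 without that animal.

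Animals kept their place across the milk list. H animal A was the highest of its group in 19 of the 24 genes, against 23.9% of all genes, and H animal D the lowest in 12, against 21.6%. B animal B was the highest of its group in 14 of the 24, against 23.2% of all genes, and the muscle-rich B animal A the lowest in 14, against 33.8%. Since the list was set with earlier results of these data known, these shares describe the animals and test nothing. Leaving out the muscle-rich animal of each group left the median of the milk list at 1.13, with 11 of the 24 genes higher and 1 lower at an unadjusted p under 0.05, against 4.12% and 2.70% of all genes.

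**Figure D2:**
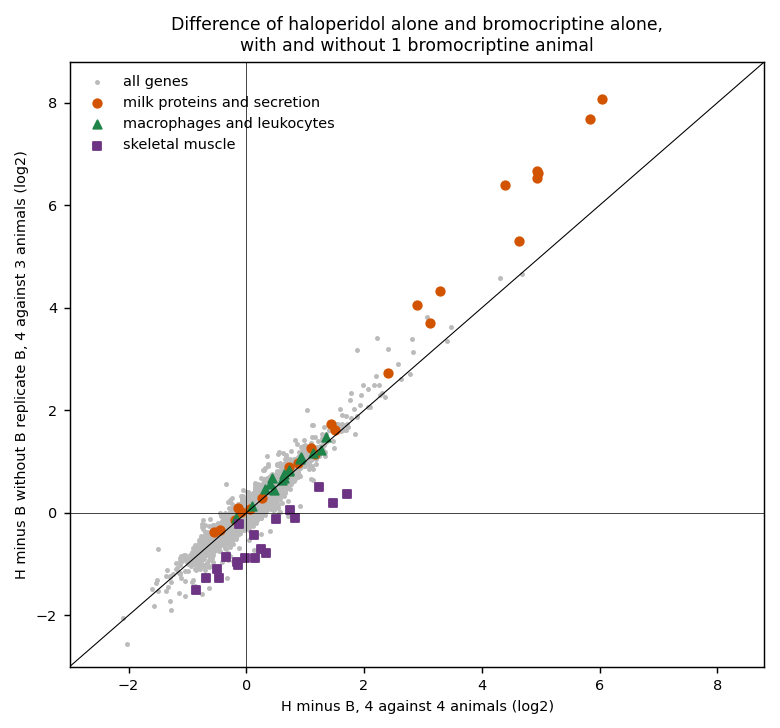
The difference between groups H and B (log2) for each of 6360 genes with all animals (horizontal axis) and without B animal B (vertical axis); grey points are all genes, coloured marks the milk, macrophage and skeletal muscle lists, and the line marks equal values. Milk genes with the largest differences lie above the line, as the choice of the animal left out fixes, macrophage genes lie near it, and skeletal muscle genes lie below it.

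Across all genes 7 probe sets passed, 6 higher and 1 lower in group H, which is 0.0337% of those tested. At an unadjusted p under 0.05 there were 1082 higher and 1109 lower, 5.20% and 5.33%. Without animal B of group B 10 passed, or 0.0481%, and 4 probe sets were in both sets of calls. That animal was chosen on milk values, so the milk genes among the 10 add no evidence. The count depended on single arrays: it was 0 without B animal C, 1 without H animal A, H animal B or B animal A, and 42 without B animal D. It was 34 without the array of group BP that stood apart, which bears on the shared variance estimate. With only the 8 arrays of the 2 groups in the fit, 5 passed, and the calls of RFLNA, SLC34A2, PDXK and ANGPTL4 were lost (adjusted p = 0.0697, 0.0650, 0.0874 and 0.0929), while ATP6V0D2 passed (adjusted p = 0.0141).

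RFLNA, refilin A, an organizer of actin filaments, had the lowest p. It was at 7.97, 8.59, 8.65 and 8.50 in H animals A to D, against 6.45, 6.86, 6.11 and 7.15 in B animals A to D. The groups did not overlap and neither group had an animal set apart. The difference was 1.78 ± 0.26, a fold of 3.44 (adjusted p = 0.00326). It stayed called when any single H or B animal was left out except B animal C, without which the difference was 1.603 (adjusted p = 0.0553).

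PDXK, pyridoxal kinase, which makes the active form of vitamin B6, was at 10.48, 10.14, 10.23 and 9.29 in H animals A to D, against 7.99, 8.37, 8.37 and 8.54 in B animals A to D. It rose by 1.72 ± 0.32, a fold of 3.29 (adjusted p = 0.0318). ANGPTL4, a secreted inhibitor of lipoprotein lipase that responds to fasting, fatty acids and low oxygen, was at 11.35, 11.11, 9.53 and 10.60 in H animals A to D, against 8.60, 8.43, 8.04 and 8.42 in B animals A to D. It rose by 2.27 ± 0.44, a fold of 4.84 (adjusted p = 0.0422). A second, dimmer ANGPTL4 probe set differed by 1.67 ± 0.50 and did not pass (adjusted p = 0.22). All H animals lay above all B animals for both genes, by the narrowest margin in H animal D for PDXK and in H animal C, one of the muscle-rich animals, for ANGPTL4. Both calls depended on the animals counted: each held in 2 of the 8 settings that leave out 1 animal, with adjusted p up to 0.127 for PDXK and 0.184 for ANGPTL4. Without animal B of group B they were at 0.0533 and 0.0584. The SLC34A2 call held in 4 of those 8 settings, and its difference stayed between 4.15 and 5.31. Of the 4, the setting without animal B of group B, which gave the 5.31, adds no evidence, since that animal was chosen on milk values.

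A further 3 probe sets passed. LOC100515383, an uncharacterized protein-coding gene, was at 7.07, 7.26, 7.62 and 7.87 in H animals A to D, against 5.15, 5.93, 4.88 and 4.89 in B animals A to D, and rose by 2.24 ± 0.44 (adjusted p = 0.0422). A probe set with no gene name here was at 6.36, 6.96, 6.16 and 7.06 in H animals A to D, against 3.34, 3.83, 3.59 and 3.36 in B animals A to D, and rose by 3.11 ± 0.54 (adjusted p = 0.0274). A second unnamed probe set, whose array identifier has the same root, differed by 2.83 ± 0.57 and did not pass (adjusted p = 0.06). For LOC100515383 and the first unnamed probe set every B value was dim, so the sizes of their differences are uncertain. The sole probe set that fell was 1 of those of MRPS12, a protein of the mitochondrial ribosome. It was at 4.31, 4.31, 4.11 and 4.70 in H animals A to D, against 5.82, 5.76, 5.71 and 5.54 in B animals A to D, and fell by 1.35 on the log2 scale (adjusted p = 0.0318). That probe set is dim, with a mean over all arrays of 5.10, and the other MRPS12 probe sets differed by -0.09 ± 0.18 and 0.01 ± 0.23.

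The next genes by p did not pass. ATP6V0D2, a subunit of the vesicle proton pump found in osteoclasts, macrophages and a few other tissues, was at 7.61, 8.28, 7.77 and 8.26 in H animals A to D, against 2.64, 4.49, 4.36 and 3.17 in B animals A to D, a difference of 4.31 ± 0.89 (adjusted p = 0.0611). The groups lay more than 3 units apart, and all 4 B values were dim. HSD17B7, an enzyme of cholesterol synthesis that also converts estrone to estradiol, differed by 1.07 ± 0.23 (adjusted p = 0.0833) and by 0.85 without animal B of group B, which was the lowest of all 8 at 9.91. Among genes lower in group H, 0 passed with limma, where 305 of 6360 (4.80%) had an unadjusted p under 0.05. The 6 of lowest p were AKR1C1, a steroid reductase whose probe set is dim, at -1.17 ± 0.25; POLR3GL, a subunit of RNA polymerase III, at -0.78 ± 0.19; CMBL, a hydrolase, at -1.13 ± 0.28; PPARGC1A, a coactivator of mitochondrial genes whose probe set is dim, at -1.33 ± 0.34; FAM162A, a mitochondrial protein, at -0.90 ± 0.23; and TMEM160 at -0.85 ± 0.22. Their adjusted p lay between 0.0833 and 0.136, and in each the 4 H animals lay below the 4 B animals, as for 3.60% of all genes. For PPARGC1A and FAM162A the muscle-rich B animal A was the highest of the 8, at 7.08 and 12.16, and it was also the highest for CMBL and POLR3GL. Without that animal the differences were -1.11 for PPARGC1A, -0.64 for FAM162A, -0.78 for CMBL and -0.67 for POLR3GL. Those of AKR1C1 and TMEM160 were -1.19 and -0.79.

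**Figure D3:**
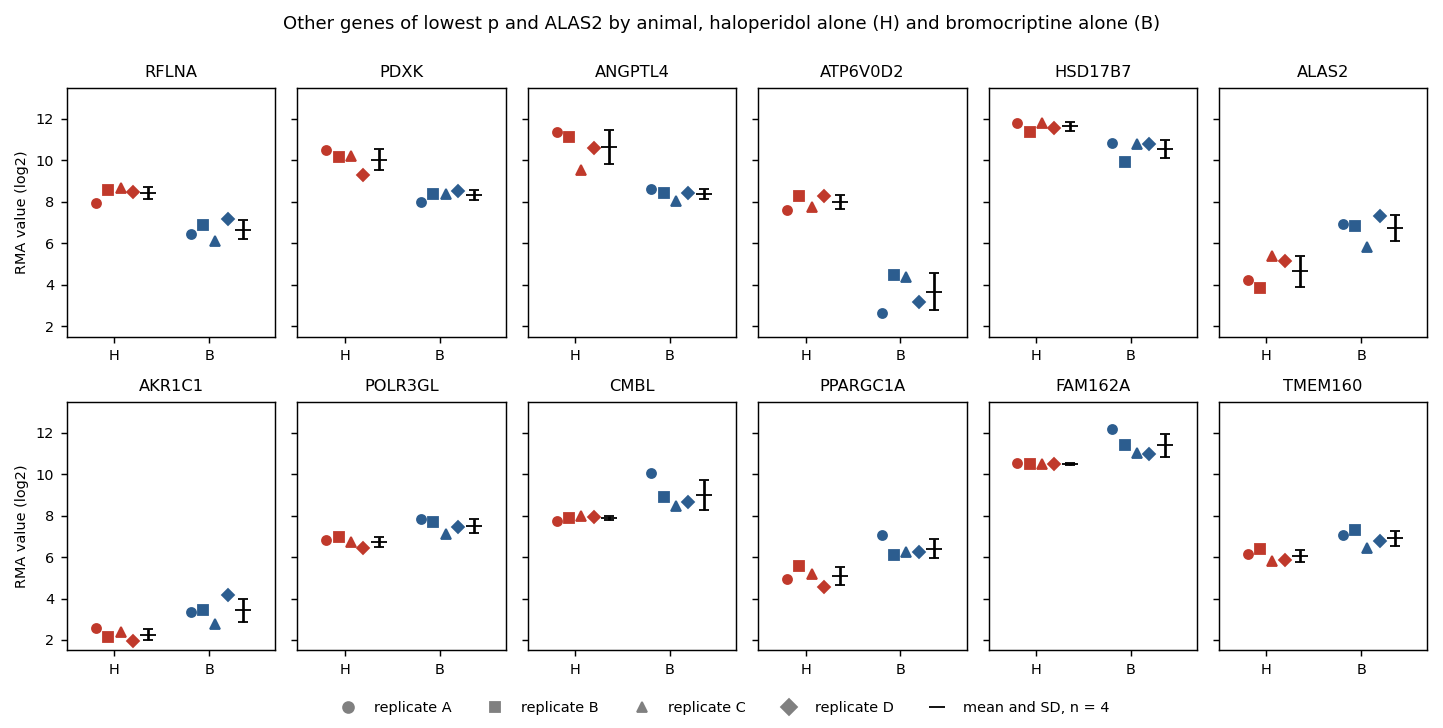
RMA values (log2) by animal in groups H (left) and B (right) for RFLNA, PDXK, ANGPTL4, the next 2 genes of lowest p among those higher in H, ALAS2, and the 6 genes of lowest p among those lower in H; the mark shape gives the replicate letter and the bars the mean and SD over 4 animals. The groups do not overlap in any of the 12 panels, and adjusted p is under 0.05 in the first 3.

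The signalling genes between prolactin and milk did not pass in H minus B. STAT5A was at 10.35, 9.98, 10.18 and 9.75 in H animals A to D, against 9.24, 9.83, 9.72 and 9.57 in B animals A to D, a difference of 0.47 ± 0.30 (adjusted p = 0.586) with a 95% interval of -0.14 to 1.08. STAT5B differed by 0.40 ± 0.34 (adjusted p = 0.703), with an interval of -0.29 to 1.09. The groups overlapped in both. A second STAT5B probe set pointed the other way, at -0.36 ± 0.29. The other STAT5A probe sets, which are dimmer, differed by 0.02 ± 0.43 and 0.09 ± 0.31. Of the 14 measured genes of 26 listed for prolactin and STAT5 response, 0 were called in either direction with limma. Among them 1 was higher and 1 lower at an unadjusted p under 0.05, near the shares of all genes of 6.53% and 4.80%: AKT1, a kinase of growth and nutrient signalling, at 0.70 ± 0.27, and GATA3, a transcription factor of luminal cells, at -0.68 ± 0.31. The median was 0.25, against 0.01 over all genes. JAK2 differed by 0.32 ± 0.34 and SOCS1, a feedback inhibitor of cytokine receptors, by 0.64 ± 0.33. The prolactin receptor gene PRLR and the STAT5 targets CISH, SOCS2 and ELF5 were not analysed here under those symbols.

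Of the hormone and dopamine receptors, 15 of 34 were measured and 0 were called or had an unadjusted p under 0.05. DRD2, the dopamine receptor on which both drugs act, was at 6.46, 5.15, 5.83 and 4.02 in H animals A to D, against 4.60, 3.57, 4.55 and 3.36 in B animals A to D, a difference of 1.34 ± 0.67 (adjusted p = 0.48). The groups overlapped and the probe set is dim, with a mean of 5.23 over all arrays. The estrogen receptor gene ESR1 was dim in every animal, from 3.85 to 4.36 in group H and from 4.09 to 5.05 in group B, and differed by -0.49 ± 0.33. The progesterone receptor gene PGR differed by 0.52 ± 0.53, and AREG, the growth factor amphiregulin, by -0.10 ± 0.54.

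Enzymes that make fatty acids pointed lower without passing. FASN, fatty acid synthase, was at 8.74, 9.57, 10.50 and 10.74 in H animals A to D, against 11.35, 11.33, 10.80 and 10.75 in B animals A to D. The H animals lay below the B animals, by the narrowest margin between the animals D, and the difference was -1.17 ± 0.47 (adjusted p = 0.376). The other FASN probe sets, which are dimmer, differed by -1.38 ± 0.30 and -1.13 ± 0.34 (adjusted p = 0.0833 and 0.209). Malic enzyme ME1, which supplies NADPH, differed by -0.94 ± 0.47, the fatty acid elongase ELOVL6 by -0.60 ± 0.42 and the lipid droplet protein PNPLA3 by -0.91 ± 0.73, all with overlapping groups. GPAM, which starts glycerolipid synthesis, differed by 0.64 ± 0.49. Of the 27 measured genes of 42 on the list of fatty acid, glyceride and sterol synthesis, 0 were called with limma, and 0 were higher and 2 lower at an unadjusted p under 0.05 (FASN and ACSS2, which activates acetate), against 6.53% and 4.80% of all genes. The median of the list was -0.28 with all animals, -0.15 without animal B of group B, -0.03 without the muscle-rich animal of each group and 0.02 without B animals A and B, so its sign rests on these animals.

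ALAS2, which starts heme synthesis in developing red cells, was at 4.21, 3.83, 5.37 and 5.16 in H animals A to D, against 6.95, 6.85, 5.83 and 7.31 in B animals A to D. All H animals lay below all B animals, and the difference of -2.09 ± 0.60 did not pass (adjusted p = 0.19); the probe set is dim, with a mean of 5.43 over all arrays. Hemoglobin beta, HBB, lay between 9.52 and 9.88 in group H and between 9.34 and 9.86 in group B and differed by -0.01 ± 0.28. AHSP, the chaperone of alpha-hemoglobin, which was dim, differed by -0.80 ± 0.45, and FECH, the last enzyme of heme synthesis, by -0.36 ± 0.16.

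Markers of macrophages and other leukocytes were higher across the list, with no member called. SPI1, the transcription factor PU.1 of myeloid cells, was at 8.75, 9.83, 9.36 and 9.89 in H animals A to D, against 7.51, 8.45, 7.99 and 8.46 in B animals A to D. CD14, a co-receptor for bacterial lipopolysaccharide, was at 10.99, 11.54, 11.23 and 10.98 in H animals A to D, against 9.36, 9.76, 9.83 and 10.70 in B animals A to D. The differences were 1.36 ± 0.40 and 1.27 ± 0.46 (adjusted p = 0.209 and 0.316). FCER1G and TYROBP, adaptors that pass signals from activating receptors, differed by 1.13 ± 0.39 and 0.73 ± 0.26. Of 22 listed genes 16 were measured, and 15 of the 16 were higher in group H, the exception being CD74, a chaperone of antigen presentation, at -0.18 ± 0.24. At an unadjusted p under 0.05, 9 of the 16 were higher and 0 lower, against 6.53% of all genes higher, and the median was 0.64. For 7 of the 16 all H animals lay above all B animals, against 4.12% of all genes. The mean over the list ran from 9.69 to 10.2 in group H and from 8.89 to 9.56 in group B.

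Single animals bore on this list. The muscle-rich B animal A was its lowest sample and was the lowest of group B in 11 of the 16 genes. Without that animal and the muscle-rich H animal C, 3 of the 16 were higher at an unadjusted p under 0.05, against 4.12% of all genes, and the median was 0.54. Without animal B of group B, 10 of the 16 were higher at that threshold, against 5.80% of all genes. Lymphocyte genes had a median of 0.15 over 13 measured, with 0 at an unadjusted p under 0.05. The part of muscle content in these values was not tested beyond these omissions.

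Other marker lists differed less or rested on few genes. Luminal epithelium had a median of 0.00 over 17 genes with all animals, of -0.42 without the muscle-rich B animal A, and of -0.46 without that animal and H animal C, where 0 of the 17 were higher and 5 lower at an unadjusted p under 0.05, against 2.70% of all genes lower. Its list mean lay between 9.76 and 10.2 in group H and between 8.76 and 10.7 in group B. The keratins KRT8 and KRT18 of this epithelium differed by 0.18 ± 0.21 and 0.05 ± 0.31. In the myoepithelium list 3 of 9 genes were higher at an unadjusted p under 0.05, against 6.53% of all genes: CNN1, a calponin of contractile cells, at 0.98 ± 0.27, the smooth-muscle gene TAGLN at 0.77 ± 0.24, and the actin ACTA2 at 0.39 ± 0.18. B animal A was low on that list, with a mean of 8.74 against 9.11 to 9.16 in the others of its group, and without it and H animal C the median was 0.00 with 2 of 9 higher at that threshold. The skeletal muscle list had a median of 0.12 over 19 genes with all animals, of 2.09 without B animal A, of -0.78 without B animal B and of 0.78 without B animal A and H animal C. Adipocyte markers had a median of 0.28 over 14 genes, of which 9 were higher in group H. At an unadjusted p under 0.05, 1 of the 14 was higher and 0 lower, against 6.53% and 4.80% of all genes. That gene was PCK1, which supplies glycerol for fat storage. It was at 8.83, 10.15, 9.72 and 9.33 in H animals A to D, against 9.20, 8.76, 5.87 and 5.43 in B animals A to D, a difference of 2.20 ± 0.61 (adjusted p = 0.183). In the keratinised skin list 8 of 25 genes were measured and all 8 were higher in group H, with a median of 0.49 and none called. Pigment genes were higher in group H in all 7 melanocyte markers measured, with none called. The melanocyte list mean ran from 6.62 to 7.61 in group H and from 5.74 to 6.35 in group B. TYRP1, a melanin enzyme, was at 8.08, 7.22, 5.95 and 8.26 in H animals A to D, against 1.87, 2.64, 4.45 and 1.84 in B animals A to D, a difference of 4.67 ± 1.65 (adjusted p = 0.293). Its size is uncertain, since every B value was dim. The part of skin or pigment cells in the other differences was not tested.

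**Figure D4:**
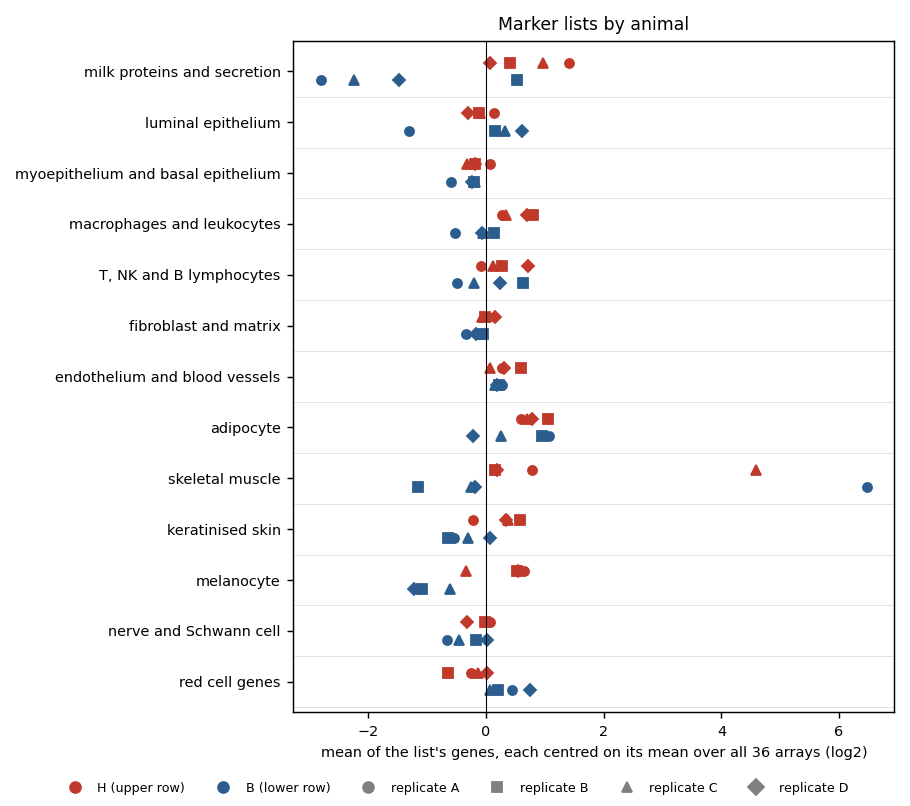
Mean of each marker list by animal, each gene centred on its mean over all 36 arrays (log2), with group H in the upper and group B in the lower row of each list; the mark shape gives the replicate letter. H animals lie to the right of B animals for macrophages and leukocytes and for melanocytes, and to the left for red cell genes. B animal B lies among the H animals for milk genes, and H animal C and B animal A lie far to the right for skeletal muscle.

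The same drug contrast was available in 24 other animals that received estrogen, progesterone or both, which share no array with groups H and B. Averaged over HE minus BE, HP minus BP and HEP minus BEP, 1900 probe sets passed, 988 higher and 912 lower, or 9.14% of those tested. This average rests on 12 animals a side and has a smaller error, so more calls there do not show larger effects. Of the 7 probe sets called in H minus B, 3 were called in the same direction with steroids present, those of SLC34A2, RFLNA and PDXK, and the unnamed one described above was called in the opposite direction. The 3 shared calls are 0.158% of the 1900.

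The milk list had a positive median in both settings, though not every member passed with steroids present. SLC34A2 differed by 4.63 ± 0.83 without steroids and by 4.38 ± 0.48 on average with them (adjusted p = 8.21e-07). CSN2 differed by 5.83 ± 1.36 without steroids and by 3.01 ± 0.79 with them (adjusted p = 0.0147), WAP by 4.94 ± 1.51 and 4.52 ± 0.87 (adjusted p = 0.00123), and PIGR by 3.11 ± 0.77 and 3.16 ± 0.44 (adjusted p = 3.75e-05). CSN1S2 differed by 6.03 without steroids and by 2.44 with them, which did not pass (adjusted p = 0.109). Of the 24 milk genes 14 were called higher with steroids present, against 7.34% of all genes, and the median was 1.64. By background the median was 2.71 with estrogen, 0.97 with progesterone and 1.20 with both. None of the 24 was called by the test of the difference between the settings, which called 0 of the 6360 genes with limma (1001 at an unadjusted p under 0.05, 15.7%). Over all probe sets that test called 7, against 448 without the array of group BP that stood apart and 610 with array weights. A difference that did not pass, here and below, therefore does not show that the settings agree. For CSN2 the difference between settings was 2.83 ± 1.57 (adjusted p = 0.42).

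STAT5A and STAT5B rose with steroids present, by 1.11 ± 0.17 and 1.27 ± 0.20 (adjusted p = 0.000111 and 9.76e-05), against 0.47 and 0.40 without them. The differences between the settings, -0.63 ± 0.34 and -0.87 ± 0.39, did not pass (adjusted p = 0.4 and 0.31). Of the fatty acid genes named above, 4 fell with steroids present, where 3.19% of all genes were called lower: ME1 by 1.89, ELOVL6 by 1.72, PNPLA3 by 2.42 and FASN by 1.27 on the log2 scale, with adjusted p of 0.00324 or less. GPAM rose by 1.69 (adjusted p = 0.000298) and JAK2 fell by 0.87 (adjusted p = 0.00511). DRD2, whose probe set is dim, rose by 1.66 with steroids present (adjusted p = 0.00675), beside 1.34 without them. Its difference between settings, -0.32, did not pass (adjusted p = 0.89). ALAS2 fell by 2.72 (adjusted p = 9.22e-06). The values of ALAS2 and the 4 fatty acid genes without steroids had the same sign and larger errors, and no difference between settings passed.

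DDC, RASGRP1 and TMC5 rose with steroids present and did not pass without them. DDC, which makes dopamine and serotonin from their precursors, rose by 0.92 ± 0.26 with steroids and differed by 0.46 ± 0.45 without them. RASGRP1, an activator of Ras, rose by 1.75 ± 0.26 with steroids and differed by 0.11 ± 0.45 without them, and TMC5, a membrane protein, rose by 1.43 ± 0.28 and differed by -0.30 ± 0.49. The probe sets of DDC and TMC5 are dim. The tests of these differences did not pass (adjusted p = 0.73 for DDC, 0.19 for RASGRP1 and 0.19 for TMC5).

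Macrophage and leukocyte genes had a median of -0.09 with steroids present, where 0 of the 16 were called with limma, beside 0.64 without steroids. None of the 16 passed the test of the difference. SPI1, for example, differed by 0.08 ± 0.23 with steroids, and the difference between settings was 1.28 ± 0.47 (adjusted p = 0.23). ANGPTL4 rose by 2.27 ± 0.44 without steroids and differed by 0.13 ± 0.44 with estrogen, 1.93 ± 0.44 with progesterone and 0.11 ± 0.44 with both. Its average with steroids was 0.72 and did not pass (adjusted p = 0.0687), while the second, dimmer ANGPTL4 probe set rose by 0.95 (adjusted p = 0.035). ATP6V0D2 differed by 4.31 ± 0.89 without steroids, by -0.35 ± 0.89 with estrogen, by -1.33 ± 0.89 with progesterone and by 3.89 ± 0.89 with both.

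The test of the difference between the settings called 7 probe sets, or 0.0337%, 5 with a larger value without steroids and 2 with a smaller one. The unnamed probe set called in H minus B differed by 4.20 ± 0.63 between settings (adjusted p = 0.0035); it rose by 3.11 without steroids and fell by 1.10 with them. The MRPS12 probe set had a difference between settings of -1.51 ± 0.29 (adjusted p = 0.035), and 1 probe set of LOC100517855, an uncharacterized protein-coding gene, one of -1.06 ± 0.20 (adjusted p = 0.03). The LOC100517855 probe set is dim, with a mean of 5.67 over all arrays. A second probe set of that gene differed by -0.11 between H and B and by 0.31 with steroids. For its brightest probe set the difference between settings was -0.43 and did not pass (adjusted p = 0.398). The other 4 have no gene name here, and the second probe set of the same root is among them.

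**Figure D5:**
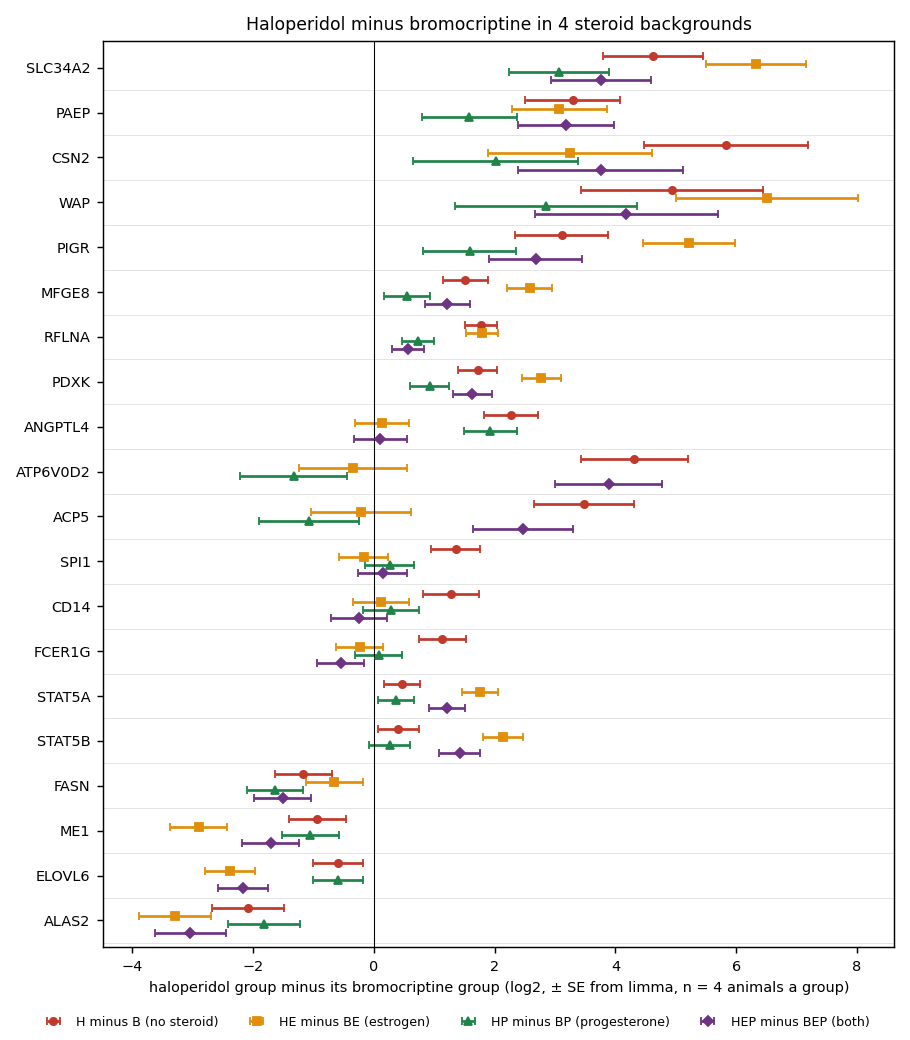
Haloperidol group minus its bromocriptine group (log2, with SE from limma, 4 animals a group) for 20 genes in animals without steroid (H minus B), with estrogen (HE minus BE), with progesterone (HP minus BP) and with both (HEP minus BEP). SLC34A2, PAEP, CSN2, WAP and PIGR lie right of 0 in all 4 settings and FASN, ME1, ELOVL6 and ALAS2 left of it, while SPI1, CD14 and FCER1G lie right of 0 without steroid and near 0 in the others.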

How the data were processed

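Biotin-labelled total RNA of each gland was hybridized to 1 porcine Affymetrix array. The deposited values are log2-like probe set summaries made with RMA per the submitters' processing notes. The RMA version and the logarithm base were not given in the sources used here. Values ran from 1.55 to 13.7, were read as log2 and were used as deposited. Of 20792 probe sets, 9149 had 1 gene symbol, 178 several and 11465 none; each of 6360 genes took the values of its brightest probe set (mean of all arrays), leaving out probe sets with several symbols.

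Groups came from the treatment labels. limma 3.58.1 in R 4.3.3 fitted 9 group means to all 36 arrays (27 residual degrees of freedom). Contrasts were H minus B, the mean of the 3 haloperidol contrasts with steroids, and their difference; two-sided p-values had a Benjamini-Hochberg adjustment across the 20792 probe sets, and an adjusted p under 0.05 was called. Arrays come from separate animals, per the series' design text. The model was tested on simulated data.

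The comparison, its members and the 28 gene lists were chosen with earlier results of these data known. Named genes are the called genes (up to 12 a direction, filled to 6 by lowest p), up to 8 a direction called only without animal B of group B, up to 4 called members of each list described, up to 5 a direction called for the difference, and 26 fixed genes, 22 of them measured. Other named list members and LOC100515383, MRPS12, LOC100517855 and unnamed probe sets were chosen after their values were seen. For 6 lists under 50% of the members had a probe set. Promoter sequences were not analysed here, so a planned search for STAT5 motifs was not run. The labels do not say whether the letters A to D of the titles link animals. Same-letter deviations of H and B correlated between -0.255 and 0.073, which with so few animals cannot settle it. The alternatives were a filter on dim probe sets, other normalizations and variance models, array weights, the letter as a block, 1 probe set per gene, fewer groups, and arrays left out; leaving out B animal A together with H animal C was chosen after seeing the data. Figures used matplotlib 3.10.9.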

Additional observations from a re-analysis of the deposited data

Results flagged for a closer look

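Of 126 sets of 4 animals screened, named genes and list means in H and in B, 8 had 1 animal set apart by a gap to the nearest other above Dixon's 95% critical value; chance alone does so in about 5% of sets. In group H, animal C had a skeletal muscle list mean of 10.9, where the others lay between 6.50 and 7.12, and a melanocyte list mean of 6.62, where the others lay between 7.49 and 7.61. In group B, animal A had a skeletal muscle list mean of 12.8 (others 5.19 to 6.14), a myoepithelium list mean of 8.74 (others 9.11 to 9.16) and a PPARGC1A value of 7.08 (others 6.09 to 6.24). Animal B of group B had LALBA at 10.8 (others 2.30 to 3.26), HSD17B7 at 9.91 (others 10.77 to 10.81) and an interferon and antigen presentation list mean of 9.14 (others 8.50 to 8.59).

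The drug contrast differed between animals without and with steroids, by the test of that difference in limma, for 1 unnamed probe set by 4.20 (without minus with steroids). It also differed for a dim probe set of MRPS12 by -1.51 and for a dim probe set of LOC100517855 by -1.06.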

How the results depend on the processing

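In H minus B, 7 probe sets were called. The count was 104 with array weights, 4 with the replicate block, 34 without BP replicate A, 1 without B replicates A and B together and 0 without B replicate A and H replicate C together (1415 at an unadjusted p under 0.05). Leaving out 1 H or B array at a time gave 0 to 42, and the other settings gave 5 to 10, of which the fit of the H and B arrays alone gave 5 without RFLNA, SLC34A2, PDXK or ANGPTL4 among them (adjusted p = 0.0697, 0.0650, 0.0874 and 0.0929). For the contrast with steroids present, 1900 probe sets were called; the count was 3704 with array weights, 798 with 1 probe set per gene and 3442 without BP replicate A, and leaving out 1 H or B array gave 1780 to 2068. For the difference between the settings, 7 were called; the count was 4 without dim probe sets and with a variance trend, 610 with array weights, 0 with 1 probe set per gene (1054 at an unadjusted p under 0.05) and 448 without BP replicate A, and leaving out 1 array gave 2 to 10. The cause of these moves was not tested, except that fewer probe sets were tested with 1 per gene. The labels do not say whether a letter links animals, so the replicate block is given as an alternative. With it the contrast with steroids gave 2027 calls and the difference 8. In H minus B, PDXK and ANGPTL4 were not called with the block (adjusted p = 0.0501 for each).

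Over the 35 named genes and all settings, 598 of 657 values kept direction and side of the threshold, 31 lost a call, 20 gained one and 8 turned. RASGRP1, 0.11 in H minus B, was -0.0251 with array weights, -0.0491 without B replicates A and B and -0.327 without B replicate A and H replicate C, and ran from -0.207 to 0.335 with 1 array left out. AREG, -0.10, was 0.0584 without B replicates A and B and ran from -0.421 to 0.331. TMC5, -0.30, was -0.740 without B replicate A and H replicate C and ran from -0.524 to 0.0912. Signal over background limits ATP6V0D2, ALAS2, PPARGC1A, DDC, TMC5, AKR1C1, DRD2 and ESR1, which have no value in the setting without dim probe sets and whose mean lay under the arrays' lower quartiles of 5.90 to 6.09.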

Other observations

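Some genes of low p in H minus B that the text has not described are given here; they were picked after their values were seen, and none was called. ACP5, the tartrate-resistant acid phosphatase of osteoclasts and macrophages, was at 12.14, 12.38, 10.65 and 11.96 in H animals A to D, against 6.74, 8.74, 9.70 and 8.03 in B animals A to D, a difference of 3.48 ± 0.83 (adjusted p = 0.109). It differed by 0.40 ± 0.48 with steroids present. The gelatinase MMP9 averaged 10.6 in group H and 7.22 in group B, a difference of 3.41 ± 0.95 (adjusted p = 0.185). SLC11A1, a metal transporter of phagosomes with a dim probe set, differed by 2.63 ± 0.62, the integrin chain ITGB2 by 1.87 ± 0.48, and HPSE, heparanase, by 2.36 ± 0.59. PGLYRP1 and LBP, which bind bacterial cell wall products, differed by 2.58 ± 0.61 and 2.83 ± 0.65 (adjusted p = 0.104 for each). Both were called with steroids present, where they rose by 1.49 and 2.61.

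Enzymes of metabolism were also among the genes picked in this way. PDK4, which restrains glucose oxidation, averaged 11.01 in group H and 9.53 in group B, a difference of 1.47 ± 0.40, CPT1A, which admits fatty acids to mitochondria, differed by 0.86 ± 0.22, and PCK2, the mitochondrial form of the enzyme made by PCK1, by 1.62 ± 0.37 (adjusted p = 0.169, 0.127 and 0.101). SRM, which makes spermidine, differed by 1.29 ± 0.33 and rose by 1.86 ± 0.19 with steroids present.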
